A study of Homo sapiens with 12 samples.

Results

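Transcript levels of 7 interferon-induced genes, RSAD2, CMPK2, IFI44, IFI44L, IFI6, IFI27 and NT5C3A, were followed across 12 arrays of HEK293, a human cell line derived from embryonic kidney. They are the rows of the deposited table whose single gene symbol is one of these names, 1 row for each gene and 7 of 22011 rows in all. The group was chosen by symbol with earlier results of these arrays in view, the measured difference between a hairpin against MED12 and GFP, in which RSAD2, IFI44 and NT5C3A lay high, so the difference of shRNA minus GFP in all 7 is given as a description with no test. A choice by that difference also favours low GFP values, which bears on every comparison of these genes with GFP.

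Cells grew for 24 hours before lipofection and were taken 48 hours after it, when viable cells with visible GFP were collected by a flow sort of 20 minutes per sample. There were 4 groups of 3 biological replicates. The full-length group received MED12, a subunit of the kinase module of the Mediator complex, with nuclear GFP fused to its N-terminus. The PQL/Opa deletion group received the same tagged protein lacking the PQL and Opa domains at its C-terminus. The shRNA group received a plasmid, peGFP-C1, in which the H1 promoter makes a short hairpin RNA against MED12 (number 5 in the labels). The GFP group, the control, received nuclear GFP alone. Both MED12 constructs and the control were in the vector pcDNA5/TO, and the constructs had an engineered Kozak sequence. The hairpin thus differed from the control in its vector and in the kind of GFP as well as in the hairpin, and a control hairpin was not analysed here. All 4 groups were transfected and sorted, and untransfected cells were not analysed here. In bulk RNA, fewer cells that express a gene and less RNA per cell cannot be told apart.

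Interferon-induced genes are switched on when interferons bind their receptors on the cell surface, or directly by factors downstream of sensors of foreign nucleic acid. The interferon signal reaches many of their promoters through a short sequence, the interferon-stimulated response element (ISRE), which binds transcription factors that the signal activates. The genes described here encode 3 kinds of protein. RSAD2, CMPK2 and NT5C3A act on pyrimidine nucleotides: RSAD2 encodes viperin, an enzyme that turns CTP into a nucleotide that stops viral RNA synthesis, CMPK2 encodes a mitochondrial nucleotide kinase, and NT5C3A encodes a nucleotidase that removes the phosphate from CMP and UMP. IFI44 and IFI44L are paralogues that lie next to each other. IFI6 and IFI27 encode small hydrophobic membrane proteins of 1 family.

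Promoter sequence is shown first, because it does not come from the array values. It is not independent of the choice, since these are known interferon-induced genes, and many such promoters hold an ISRE. RefSeq promoter entries, which run from 250 bases before an annotated start to 50 bases after it on build GRCh38.p14, were matched for 7 of the 7 genes, 13 entries in all. Each was searched on both strands for an ISRE core, here a pair of GAAA blocks with 2 bases of any kind between them, and for the core of the interferon gamma-activated site, spelt TTCNNNGAA. The 5 genes with an ISRE core follow, each with the 250 bases before its start, 5′ to 3′ on the strand of the gene. Capitals mark the ISRE cores, which read as TTTC blocks where the core lies on the opposite strand.
RSAD2 (chr2:6877527-6877776, plus strand): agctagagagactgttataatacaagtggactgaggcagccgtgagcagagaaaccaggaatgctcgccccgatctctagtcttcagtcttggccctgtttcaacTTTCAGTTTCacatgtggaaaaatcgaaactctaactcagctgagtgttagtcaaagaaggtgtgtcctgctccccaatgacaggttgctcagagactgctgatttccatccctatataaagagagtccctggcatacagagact
IFI44 (chr1:78649539-78649788, plus strand): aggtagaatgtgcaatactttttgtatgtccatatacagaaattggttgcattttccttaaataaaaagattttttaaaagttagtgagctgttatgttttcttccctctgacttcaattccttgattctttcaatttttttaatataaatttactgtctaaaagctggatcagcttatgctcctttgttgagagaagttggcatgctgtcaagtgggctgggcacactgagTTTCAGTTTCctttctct
IFI44L (chr1:78620198-78620447, plus strand): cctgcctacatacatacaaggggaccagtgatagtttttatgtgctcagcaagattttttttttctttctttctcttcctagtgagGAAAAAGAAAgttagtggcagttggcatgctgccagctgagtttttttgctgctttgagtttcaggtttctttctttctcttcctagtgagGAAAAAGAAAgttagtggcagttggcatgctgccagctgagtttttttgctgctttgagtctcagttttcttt
IFI6 (chr1:27672193-27672442, minus strand): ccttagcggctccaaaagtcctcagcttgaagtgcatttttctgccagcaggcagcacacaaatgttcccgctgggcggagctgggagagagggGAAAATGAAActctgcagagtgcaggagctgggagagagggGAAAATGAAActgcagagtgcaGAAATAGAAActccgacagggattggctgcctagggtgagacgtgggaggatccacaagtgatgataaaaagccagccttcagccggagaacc
IFI27 (chr14:94110486-94110735, plus strand): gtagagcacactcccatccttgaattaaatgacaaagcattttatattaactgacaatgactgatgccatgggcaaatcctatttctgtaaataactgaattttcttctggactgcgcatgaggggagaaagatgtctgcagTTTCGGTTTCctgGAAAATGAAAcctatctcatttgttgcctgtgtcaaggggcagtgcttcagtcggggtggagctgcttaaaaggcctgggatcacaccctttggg

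RSAD2 and IFI44 carry the same 10 letters, TTTCAGTTTC, at positions -145 to -136 from the start in RSAD2 and -18 to -9 in IFI44. In IFI44L the core GAAAAAGAAA occurs at 2 places that lie 91 bases apart, within a stretch of 85 identical bases. IFI6 has 3 cores, of which 2 share the letters GAAAATGAAA and lie 41 bases apart in a stretch of 29 identical bases. IFI27 has 2 cores on opposite strands, TTTCGGTTTC and GAAAATGAAA, and the only gamma-activated core in the 7 genes, which overlaps both of them. In all, 7 of the 13 entries held an ISRE core, against 3.57% of the 35116 entries in the table. The entries of IFI44 overlap and hold the same core, and those of IFI27 overlap and share both cores, so the 7 are not separate sites. Counted by gene, 5 of 7 had one, against 4.38% of 27305 genes, while 7.66% of all entries held a gamma-activated core. Since the choice of interferon-induced genes favours ISREs, nothing is read from these counts. No ISRE core was found in the 3 entries of CMPK2 or the 2 entries of NT5C3A, which says only that these letters are not in those windows. RSAD2 and CMPK2 are read in opposite directions from neighbouring starts, and an entry of RSAD2 without the core shares 165 bases with one of CMPK2. A match is a description of the letters and was not tested as a binding site.

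**Figure D1:**
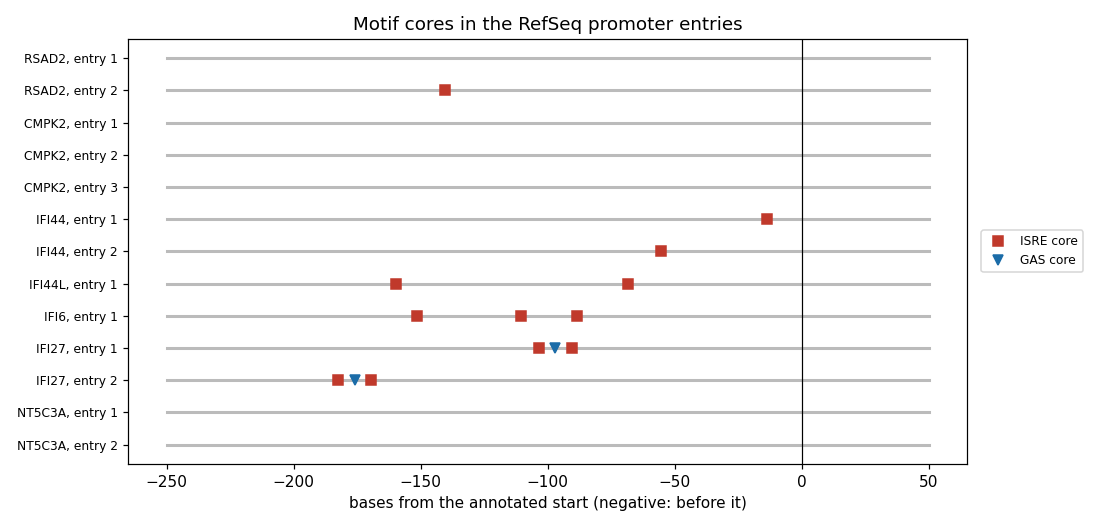
Positions of the ISRE core (red squares) and the gamma-activated core (blue triangles) in the 13 RefSeq promoter entries of the 7 genes. The x axis gives bases from the annotated start, and each grey line is an entry of 300 bases. The 7 entries with a core belong to RSAD2, IFI44, IFI44L, IFI6 and IFI27, and CMPK2 and NT5C3A have none.

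All values below are the deposited log2 values of single arrays, or log2 differences between group means. MED12 itself, the gene that was targeted, checks the labels. Its log2 value was 10.63, 10.66 and 10.75 in the full-length arrays, 8.62, 8.90 and 9.25 in the PQL/Opa deletion arrays, 3.63, 3.63 and 3.74 in the shRNA arrays, and 4.03, 4.56 and 4.66 in the GFP arrays. The 4 groups did not overlap in MED12. The shRNA arrays lay below the GFP arrays by a log2 difference of -0.75 ± 0.20 (SE; 95% interval from -1.18 to -0.31). The unadjusted p was 0.00308, and adjusted over all rows the difference was short of the threshold (limma, adjusted p = 0.730). Which part of MED12 the probes read is not given in the sources used here, so its level with the shortened construct is not a measure of amount alone. Array medians ran from 3.39 to 3.51, but the arrays differed in spread: the SD of all values was 1.34, 1.45 and 1.40 in replicate 1 of the shRNA, PQL/Opa deletion and GFP groups, and 1.47 to 1.60 in the other 9. Of the HEK293 markers VIM, CDH2 and NEFM lay at the 93.5th, 90.5th and 90.0th percentiles of row means, whereas EYA1 and LHX1 lay near the middle, at 47.2 and 53.1.

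The nucleotide enzymes come first. RSAD2 (row 2468351) had log2 values of 3.91, 4.28 and 4.59 in the full-length arrays, 4.51, 4.78 and 4.91 in the PQL/Opa deletion arrays, 5.96, 6.45 and 6.43 in the shRNA arrays, and 3.98, 3.45 and 3.63 in the GFP arrays. The shRNA arrays stood apart from all the others. The PQL/Opa deletion arrays lay above every GFP array, while the full-length arrays overlapped both. Group means were 4.26 ± 0.34 with full-length MED12, 4.73 ± 0.20 with the deletion, 6.28 ± 0.28 with the shRNA and 3.69 ± 0.27 with GFP (SD, n = 3 each). The difference of shRNA minus GFP was 2.60 ± 0.22 (SE) on the log2 scale, 6.04-fold. The GFP values lay between percentiles 51.7 and 70.3 of their arrays, and with no detection call they may be background, so the fold over GFP is uncertain.

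NT5C3A (row 3045004), the nucleotidase, had 4.32, 4.78 and 4.97 in the full-length arrays, 4.73, 4.93 and 4.58 in the PQL/Opa deletion arrays, 6.21, 5.81 and 5.91 in the shRNA arrays, and 4.14, 3.90 and 4.46 in the GFP arrays. Here both MED12 constructs gave nearly the same mean, 4.69 ± 0.34 with full-length MED12 and 4.75 ± 0.17 with the deletion, against 5.98 ± 0.21 with the shRNA and 4.17 ± 0.28 with GFP (SD, n = 3 each). The difference of shRNA minus GFP was 1.81 ± 0.21 (SE).

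CMPK2 (row 2539125), the kinase whose gene neighbours RSAD2, did not share this pattern. It had 3.73, 3.79 and 3.52 in the full-length arrays, 4.23, 3.64 and 3.48 in the PQL/Opa deletion arrays, 4.16, 3.97 and 3.76 in the shRNA arrays, and 4.23, 3.60 and 3.48 in the GFP arrays. The 4 groups overlapped, with means of 3.68 ± 0.14, 3.78 ± 0.39, 3.96 ± 0.20 and 3.77 ± 0.40 in that order (SD, n = 3 each). Its 3 highest values were those of replicate 1 of the PQL/Opa deletion, shRNA and GFP groups, the 3 arrays with the narrowest spread. After each array was scaled to the same SD, CMPK2 was still at 4.27, 4.23 and 4.30 in replicate 1 of the PQL/Opa deletion, shRNA and GFP groups, and between 3.56 and 4.03 in the other 9 arrays. The part of the array spread in these values was not tested further. The row lay between the 52.5th and 77.8th percentiles of its arrays with no detection call, so its signal may be background. The difference of shRNA minus GFP was 0.19 ± 0.24 (SE), against 2.60 for RSAD2.

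**Figure D2:**
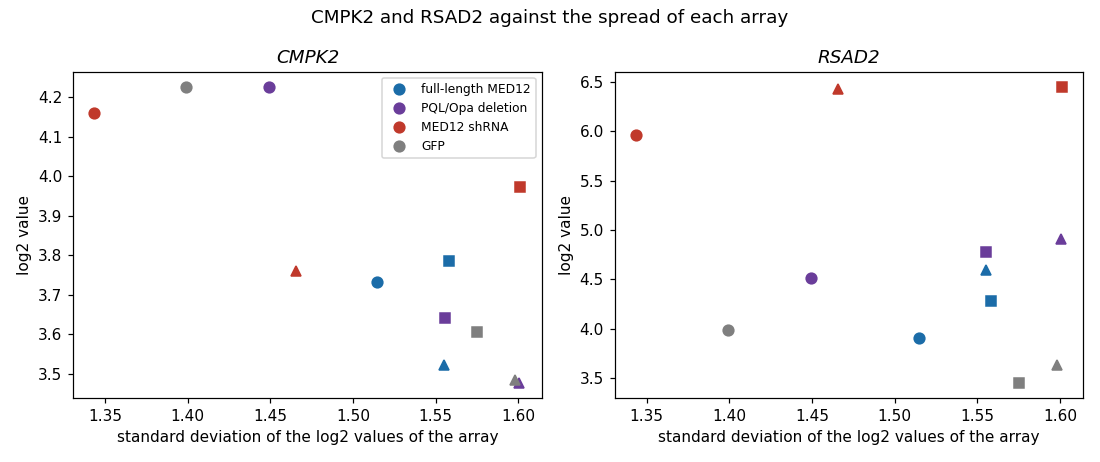
CMPK2 (left) and RSAD2 (right), deposited log2 value of each of the 12 arrays against the SD of all values of that array, with colours for the 4 groups and circles, squares and triangles for replicates 1, 2 and 3. The 3 highest values of CMPK2 are those of the 3 narrowest arrays, at 4.16 to 4.23, whereas the 3 highest values of RSAD2 are those of the shRNA group, at 5.96 to 6.45.

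IFI44 (row 2343511), which encodes a cytoplasmic protein, had 3.82, 3.85 and 3.59 in the full-length arrays, 4.03, 4.17 and 4.24 in the PQL/Opa deletion arrays, 5.54, 5.98 and 5.66 in the shRNA arrays, and 3.12, 3.39 and 3.21 in the GFP arrays. No array of any group overlapped another group. The means were 3.75 ± 0.14 with full-length MED12, 4.15 ± 0.11 with the deletion, 5.72 ± 0.23 with the shRNA and 3.24 ± 0.14 with GFP (SD, n = 3 each), and shRNA minus GFP was 2.49 ± 0.16 (SE), 5.60-fold. The GFP values of IFI44 lay lower in their arrays than those of RSAD2, between percentiles 33.7 and 49.3, so this fold is uncertain in the same way.

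Its paralogue IFI44L (row 2343473) had 3.35, 3.81 and 3.30 in the full-length arrays, 3.53, 3.94 and 4.18 in the PQL/Opa deletion arrays, 4.35, 4.95 and 5.00 in the shRNA arrays, and 3.60, 3.33 and 3.53 in the GFP arrays. Only the shRNA arrays stood apart. Full-length MED12 and GFP had the same mean to 2 decimals, 3.49 ± 0.28 and 3.49 ± 0.14, against 3.88 ± 0.33 with the deletion and 4.77 ± 0.36 with the shRNA (SD, n = 3 each). The difference of shRNA minus GFP was 1.28 ± 0.23 (SE), less than that of IFI44, and its GFP values lay between percentiles 47.3 and 55.3.

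Of the membrane proteins, IFI6 (row 2403261) had 4.34, 4.32 and 4.40 in the full-length arrays, 4.81, 4.53 and 4.66 in the PQL/Opa deletion arrays, 5.43, 5.02 and 5.06 in the shRNA arrays, and 4.53, 4.15 and 4.10 in the GFP arrays. The shRNA arrays lay above all others, and the PQL/Opa deletion arrays lay above all full-length arrays but overlapped GFP replicate 1. Means were 4.36 ± 0.04 with full-length MED12, 4.67 ± 0.14 with the deletion, 5.17 ± 0.23 with the shRNA and 4.26 ± 0.23 with GFP (SD, n = 3 each), and shRNA minus GFP was 0.91 ± 0.17 (SE).

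IFI27 (row 3549575), a relative of IFI6, had 3.67, 3.29 and 3.38 in the full-length arrays, 3.76, 3.53 and 3.43 in the PQL/Opa deletion arrays, 3.51, 4.33 and 3.90 in the shRNA arrays, and 3.56, 3.21 and 3.52 in the GFP arrays. The groups overlapped, since shRNA replicate 1 lay below GFP replicates 1 and 3. The difference of shRNA minus GFP was 0.48 ± 0.21 (SE), and the means were 3.91 ± 0.41 and 3.43 ± 0.19 (SD, n = 3 each). The row lay between the 42.3rd and 76.3rd percentiles of its arrays and, like that of CMPK2, has no detection call.

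**Figure D3:**
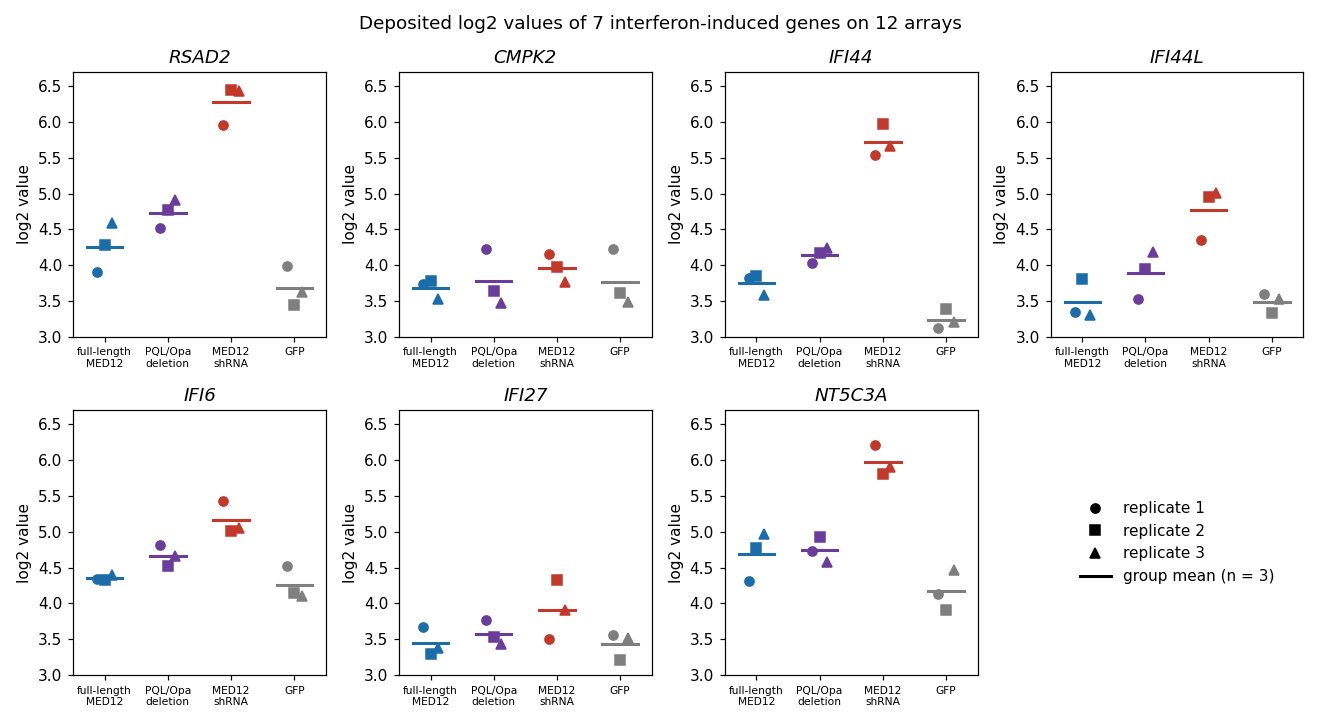
Deposited log2 values (y axis) of the 7 genes on the 12 arrays, by group: full-length MED12, PQL/Opa deletion, MED12 shRNA and GFP. Symbols are single arrays, with circles, squares and triangles for replicates 1, 2 and 3, and lines are group means of 3 arrays. The shRNA arrays stand apart in RSAD2, IFI44, IFI44L, IFI6 and NT5C3A and overlap other groups in CMPK2 and IFI27.

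Set side by side, 5 of the 7 genes had every shRNA array above every GFP array, where 4.71% of all rows did, and the other two, CMPK2 and IFI27, did not. The median difference of shRNA minus GFP over the 7 genes was 1.28, against 0.024 over all rows, and 4 genes exceeded 1, as did 0.604% of rows. Because the genes were proposed with this difference known, nothing is read from these counts. The hairpin arrays also lay apart from both MED12 construct groups in the same 5 genes. Against the full-length arrays the median difference was 1.28, from 0.28 for CMPK2 to 2.02 for RSAD2, and 6.16% of all rows lay apart in that direction. Against the PQL/Opa deletion arrays it was 0.89, from 0.18 for CMPK2 to 1.58 for IFI44, and 5.74% of all rows lay apart. These 3 comparisons share the shRNA arrays.

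How the MED12 constructs differ from each other is the comparison least touched by the choice of genes, since it shares no array with the hairpin or GFP groups. In the fit across all rows (limma, two-sided, Benjamini-Hochberg adjustment over 22011 rows) 0 of the 7 genes differed between the PQL/Opa deletion and full-length MED12, where 0.00454% of all rows did, MED12 alone. At an unadjusted p under 0.05 there was 1, IFI44, where 0.795% of rows were higher in that sense. All 7 had a higher mean with the deletion, as did 50.3% of rows, and the median difference was 0.31, against 0.0016 over all rows. The 7 genes were read on the same 6 arrays, so these counts are not 7 separate pieces of evidence.

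Among single genes, RSAD2 differed by 0.48 ± 0.22 (SE; 95% interval from -0.01 to 0.97), higher in 2 of 3 deletion arrays than any full-length array. IFI44L differed by 0.40 ± 0.23 (from -0.11 to 0.91) and IFI44 by 0.39 ± 0.16 (from 0.04 to 0.75; unadjusted p = 0.0329, limma). For IFI6 the difference was 0.31 ± 0.17 (from -0.06 to 0.69). In IFI44 and IFI6 all 3 deletion arrays lay above all 3 full-length arrays, as in 3.09% of rows. The differences were smaller for IFI27, at 0.12 ± 0.21 (from -0.34 to 0.59), CMPK2, at 0.10 ± 0.24 (from -0.42 to 0.63), and NT5C3A, at 0.06 ± 0.21 (from -0.41 to 0.52). The adjusted p of each was 0.9998 (limma). These intervals do not show that both constructs act alike, since those of RSAD2 and IFI44L reach 0.97 and 0.91.

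Each construct was also set against GFP, the comparisons that the series design names, and both share the GFP arrays with the hairpin comparison. Since low GFP values favoured the choice of the 7 genes, their differences from GFP may be raised by the choice, and nothing is read from the counts that follow. With the PQL/Opa deletion 0 of the 7 genes passed over all rows, where 0.00454% did, again MED12 alone. At an unadjusted p under 0.05 there were 4, RSAD2, IFI44, IFI6 and NT5C3A, where 1.75% of rows were higher in that sense. RSAD2 was 1.05 ± 0.22 (SE) above GFP, 2.07-fold, with all 3 deletion arrays above all 3 GFP arrays (95% interval from 0.56 to 1.54; limma, adjusted p = 0.860). IFI44 was 0.91 ± 0.16 above it, 1.88-fold, again in 3 of 3 arrays (from 0.55 to 1.26; limma, adjusted p = 0.598). NT5C3A, at 0.58 ± 0.21, was the 1 other gene whose arrays did not overlap, so that 3 of 7 lay apart, as did 4.13% of rows. IFI6 had 0.41 ± 0.17, IFI44L 0.40 ± 0.23, IFI27 0.14 ± 0.21 and CMPK2 0.01 ± 0.24 (SE). The median was 0.41, against -0.0079 over all rows, and 7 of 7 were above 0, as were 48.4% of rows. With weights for the quality of each array RSAD2 and IFI44 passed (limma, adjusted p = 0.0233 and 0.0272), where 20 of all rows did. Over the other alternatives tried 0 of the 7 genes did. The weighted fit uses the same GFP arrays, with a weight of 3.31 for GFP replicate 2 and 0.287 for GFP replicate 1, so nothing is read from these passes either.

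With full-length MED12 0 of the 7 genes passed against GFP, where 0.0136% of rows did. Unadjusted p-values under 0.05 were had by 3, where 1.44% of rows were higher in that sense: RSAD2, at 0.57 ± 0.22 (SE; 95% interval from 0.08 to 1.06), NT5C3A, at 0.52 ± 0.21 (from 0.05 to 0.98), and IFI44, at 0.51 ± 0.16 (from 0.16 to 0.87). IFI44 was the 1 gene whose full-length arrays lay above all GFP arrays, as in 4.03% of rows. IFI6 had 0.10 ± 0.17, IFI27 0.02 ± 0.21, IFI44L -0.003 ± 0.23 and CMPK2 -0.09 ± 0.24. The median was 0.10, against -0.0066 over all rows, and 5 of 7 were above 0, as were 48.6% of rows. Each adjusted p was 1 (limma).

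**Figure D4:**
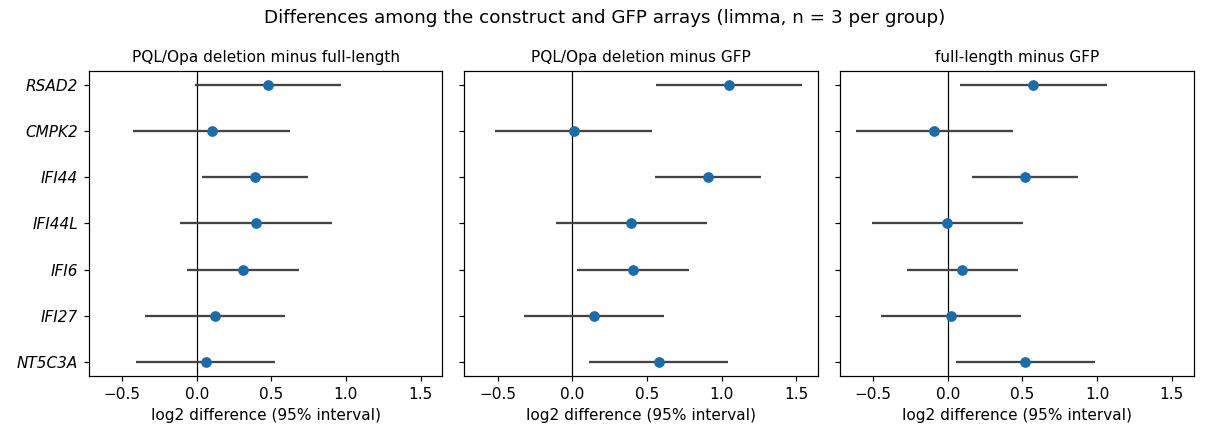
Log2 differences (x axis) of the 7 genes between the PQL/Opa deletion and full-length MED12, the PQL/Opa deletion and GFP, and full-length MED12 and GFP, from limma on 12 arrays. Points are differences and bars 95% intervals (n = 3 arrays per group). In the middle panel RSAD2 and IFI44 lie highest, at 1.05 and 0.91, while CMPK2 lies at 0.01.

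The order of the 4 group means was the same in 5 of the 7 genes. In RSAD2, IFI44, IFI6, IFI27 and NT5C3A the shRNA mean was highest, followed by the deletion, full-length MED12 and, lowest, GFP, as in 5.15% of all rows. The choice of the genes largely fixed the highest and the lowest place, so nothing is read from that count. In CMPK2 and IFI44L full-length MED12 and GFP changed places. Neighbours in the order did not always differ beyond their spread. At the top of the order, shRNA over the deletion, the difference exceeded the larger SD of both groups in 5 genes and not in IFI27 (0.34) or CMPK2 (0.18). The middle step, the deletion over full-length MED12, exceeded it in RSAD2, IFI44 and IFI6 but not in IFI27 (0.12) or NT5C3A (0.06). At the lowest step, full-length MED12 over GFP, it did so in RSAD2, IFI44 and NT5C3A but not in IFI6 (0.10) or IFI27 (0.02). In IFI44L the deletion lay above GFP by more than the larger SD, at 0.40, while full-length MED12 and GFP did not differ beyond it. All 4 groups lay fully apart in this order in 2 of 22011 rows, IFI44 and MX1, an antiviral GTPase of the same response, which came to 0.00909%. IFI44 was among the genes seen to be high with the shRNA when the group was chosen, so this is a description alone. The order does not follow that of the MED12 values, which were highest with full-length MED12 and lowest with the shRNA.

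Across single arrays the genes split in the same way. The mean profile of the 7 genes correlated over the 12 arrays with RSAD2 (Pearson r = 0.985), IFI44 (0.979), NT5C3A (0.938), IFI44L (0.921) and IFI6 (0.915), and less with IFI27 (0.716) and CMPK2 (0.389). Each gene is part of that mean, and the arrays share their groups, so these values are carried largely by the differences between groups. For RSAD2 with IFI44 r was 0.962 over the arrays and -0.019 after group means were taken out. For CMPK2 with IFI6 it was 0.584 and then 0.759, and both genes were highest within their group in replicate 1 of the PQL/Opa deletion, shRNA and GFP groups. The neighbours RSAD2 and CMPK2 had 0.280 and then -0.185, and the neighbours IFI44 and IFI44L had 0.914 and 0.535. Over all pairs of the 7 genes, r after group means were taken out ran from -0.685, for IFI44 with IFI6, to 0.759, for CMPK2 with IFI6.

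The 8 other genes whose pattern was most like the mean of the 7 over the 12 arrays were SAMD9 (r = 0.981), NMI (0.962), ERAP2 (0.956), IFITM1 (0.955), OAS2 (0.953), IFIT2 (0.952), IFIT1 (0.948) and TRIM38 (0.936). Of these, 6 are in the list of interferon-induced genes described next, and ERAP2, a peptidase that trims antigens, and TRIM38, a ubiquitin ligase, are not. With group means taken out the correlation was 0.807 for OAS2, which encodes a synthetase that answers double-stranded RNA, and between 0.090 and 0.555 for the other 7. SAMD9, an antiviral factor, was at 3.87 ± 0.18 with full-length MED12, 4.04 ± 0.19 with the deletion, 5.05 ± 0.12 with the shRNA and 3.56 ± 0.09 with GFP (SD, n = 3 each).

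Other interferon-induced genes were higher in the shRNA arrays too. Of a list of 80 such genes outside the 7, 65 had a row of their own. In the comparison of shRNA with GFP 9 of them rose over all rows and 0 fell (limma), where 0.0591% of all rows rose. A positive difference was seen in 63 of 65, as in 54.4% of rows, and 37 had an unadjusted p under 0.05, as did 5.04% of rows. The median was 0.65, against 0.024 over all rows. The list was drawn up with earlier results of these arrays known, so its direction is not independent evidence. The genes that rose were IFIT1, IFIT2 and IFIT3, which bind foreign RNA or each other, OAS2, IFITM1, which blocks virus entry at membranes, TRIM22, an antiviral ubiquitin ligase, SAMD9, PARP14, an ADP-ribosyltransferase, and NMI. IFIT2 differed by 2.63 ± 0.25 (SE; limma, adjusted p = 0.00220), which is close to RSAD2 at 2.60. IFIT3 had 2.38 (adjusted p = 0.00816), TRIM22 2.25 (0.0106), IFIT1 2.24 (0.00985), IFITM1 1.80 (0.0106), PARP14 1.59 (0.0297) and NMI 1.58 (0.00437). RIGI, a sensor of viral RNA, had 1.74 and did not pass (limma, adjusted p = 0.0884). NMI, TRIM22, OAS2 and ERAP2 lay at or below the 24.8th percentile of every GFP array, so the sizes of their differences are uncertain. GFP values of IFIT3, IFITM1 and SAMD9 lay between percentiles 46.3 and 64.5, and those of IFIT2 and PARP14 between 58.0 and 74.3. With no detection call these may be background too, so their differences are uncertain in the same way as that of RSAD2. Without GFP replicate 2 the count of 9 was 3, without GFP replicate 3 it was 5, without shRNA replicate 1 it was 14, and after quantile normalization it was 16.

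In the comparisons among constructs and GFP, 0 of the 65 genes passed (limma), and 1, 8 and 3 had an unadjusted p under 0.05 in the deletion against full-length MED12, the deletion against GFP and full-length MED12 against GFP, as did 1.9%, 3.46% and 2.8% of all rows. Their medians were 0.11, 0.18 and 0.09 in that order, beside 0.31, 0.41 and 0.10 for the 7 genes. IFIT3 had the smallest p of the list in the deletion against full-length MED12, with 0.94 ± 0.27 (SE; limma, adjusted p = 0.9998), followed by ISG15, a ubiquitin-like protein, at -0.41, SP100, a nuclear body protein, at 0.30, and IRF7, a transcription factor of the interferon response, at 0.28. Against GFP the deletion had 1.39 ± 0.27 for IFIT3 (limma, adjusted p = 0.860), 0.94 for IFIT2, 0.72 for MX1 and 0.68 for SP110, another nuclear body protein. ISG15 thus lay on the other side of 0 from the 7 genes between the constructs (95% interval from -0.84 to 0.02). It was among 21 of the 65 genes below 0, while 44 lay above, as did 50.3% of all rows. Against GFP ISG15 was 0.70 ± 0.20 (SE) higher with full-length MED12 and 0.29 ± 0.20 higher with the deletion.

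Genes upstream of the response were examined next, and 0 of them passed in the comparison of shRNA with GFP (limma). For the counts of these lists and those that follow, 54.4% of all rows lay above 0 in that comparison. An unadjusted p under 0.05 was had by 5.04% of all rows. Among interferons themselves 9 of 21 had a row of their own, with a median difference of 0.16, 8 of 9 above 0, and 1 at an unadjusted p under 0.05. That was IFNA6, at 0.80 ± 0.34 (SE; adjusted p = 0.983), which was higher still with full-length MED12 than with GFP, by 1.27 ± 0.34 (adjusted p = 1). The others with the largest differences were IFNW1 at 0.28, IFNA8 at 0.22 and IFNK at -0.18. In the GFP group the mean of the 9 interferon rows over an array ran from 2.15 to 2.76, below the array medians. IFNA6 lay between percentiles 6.17 and 38.5 of the GFP arrays, and IFNW1 between 7.22 and 7.92. With no detection call the interferon rows may be background, so neither a rise nor its absence can be read from them. Receptors and signalling genes, 15 of 19 measured, had a median of 0.10, with 1 at an unadjusted p under 0.05. IRF3, which acts below the sensors, had 0.35, SOCS1, an inhibitor of the pathway, 0.34, IRF2 0.31 and IFNGR1, a chain of the interferon gamma receptor, -0.25. Among 14 sensors and adaptors the median was 0.18 and 3 had an unadjusted p under 0.05. They were RIGI, IFIH1, a sensor of long double-stranded RNA, at 1.26 ± 0.22 (SE; adjusted p = 0.105), and TLR3, which senses it in endosomes, at 1.15 ± 0.28 (adjusted p = 0.553). TLR3 lay between percentiles 8.32 and 24.6 of the GFP arrays, so the size of its difference is uncertain. EIF2AK2, a kinase that double-stranded RNA activates, had 0.29. RIGI, IFIH1, DHX58 and EIF2AK2 are in both this list and the interferon-induced one, as are IRF1, IRF7 and IRF9 of the receptors and signalling genes.

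Relatives of the 7 genes by family lay near 0. CMPK1, the cytosolic counterpart of CMPK2, had 0.10 ± 0.20 (SE) in shRNA minus GFP, IFI27L1 0.06 ± 0.19, NT5C2 -0.05 ± 0.31, NT5C3B -0.06 ± 0.19 and IFI27L2 -0.08 ± 0.34, and 0 of these 5 passed (limma, adjusted p = 0.9996 for each; 0 at an unadjusted p under 0.05). IFI27L1 and IFI27L2 neighbour IFI27. Enzymes that make or use pyrimidine nucleotides, 26 of 31 measured, had 13 members above 0 and 13 below, a median of 0.0088 and 0 past the test, with 2 at an unadjusted p under 0.05. The largest differences were those of TK2, a mitochondrial thymidine kinase, at 0.54, NT5C at 0.37, TK1 at 0.35 and DHODH at 0.33. Genes for iron-sulphur delivery to viperin and for its partners, 11 of 11 measured, had a median of 0.0053 and 0 past the test (0 at an unadjusted p under 0.05), with FDPS, an enzyme of isoprenoid synthesis, at -0.53, CIAO3 at 0.25, TRAF6 at 0.21 and VAPB at -0.12. Targets of nuclear factor kappa B, 13 of 16 measured, had a median of 0.05 and 0 past the test, with 1 at an unadjusted p under 0.05. CCL2 had 0.59, CCL20 0.38, TNF -0.23 and IL6 0.22. In the kinase module 0 of 7 passed, with 1, MED12, at an unadjusted p under 0.05. Besides MED12 its cyclin CCNC had -0.44, its kinase CDK8 -0.33 and MED13 -0.14.

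**Figure D5:**
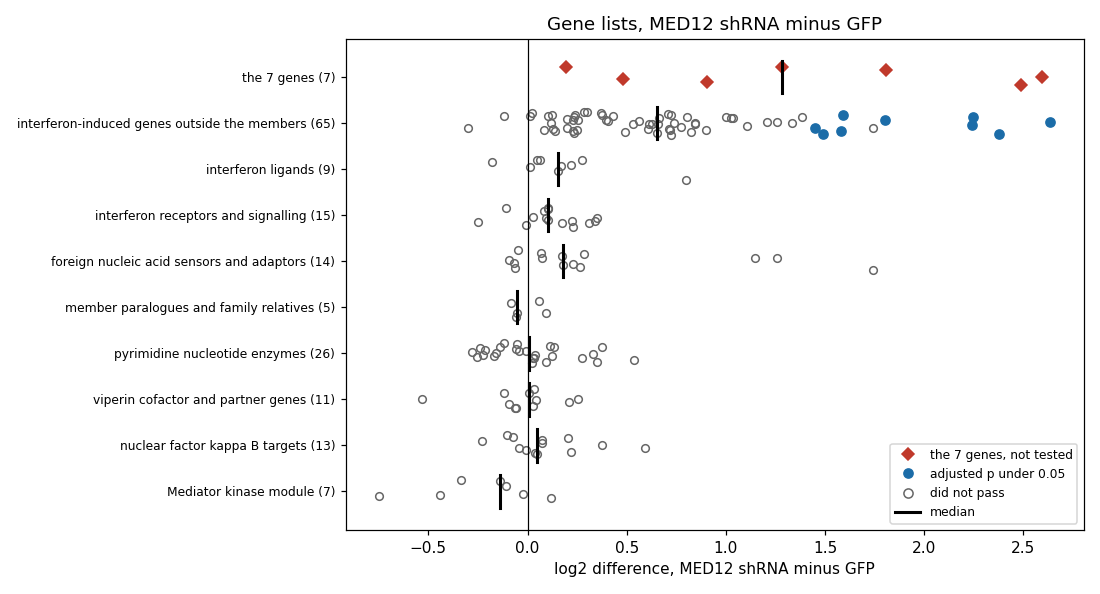
Log2 differences of shRNA minus GFP (x axis) by gene list, with the number of genes in brackets. Red diamonds are the 7 genes, which were not tested, blue points passed (limma, adjusted p under 0.05), open points did not, and black bars are medians. The 9 genes that passed are all in the interferon-induced list, whose median is 0.65.

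Markers of HEK293 and of other cell types are given beside these levels, with the same shares over all rows, 54.4% above 0 and 5.04% at an unadjusted p under 0.05. Of 8 HEK293 markers 4 lay above 0 in shRNA minus GFP and 4 below, with a median of -0.08 and 0 past the test (limma; 1 at an unadjusted p under 0.05). That was NEFM, a neurofilament subunit, with means of 4.83 in the shRNA group and 5.43 in the GFP group, a difference of -0.60 ± 0.16 (SE; limma, adjusted p = 0.758), and the 2 groups of arrays did not overlap. The neuronal filament genes INA and NEFL had -0.36 and -0.24, and VIM had 0.23.

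Of 10 leukocyte markers 8 had a row, 7 of them above 0 in shRNA minus GFP, with a median of 0.14 and 0 past the test (limma; 0 at an unadjusted p under 0.05). Their mean over an array ran from 2.59 to 2.76 in the full-length group, 2.61 to 3.31 in the PQL/Opa deletion group, 2.76 to 3.30 in the shRNA group and 2.62 to 3.11 in the GFP group, so the groups overlapped. By row mean, LYZ, PTPRC, CD2 and CD3E lay at percentiles 7.79, 8.35, 11.9 and 12.2, whereas CD74, CD14, MS4A1 and NKG7 lay at 45.6, 51.7, 55.9 and 76.7. The largest differences of shRNA minus GFP were those of NKG7 at 0.35, LYZ at 0.29, MS4A1 at 0.28 and PTPRC at 0.17. Of the markers of plasmacytoid dendritic cells, a source of interferons, 4 of 5 were measured, with a median of -0.04, CLEC4C at -0.09, LILRA4 at -0.08, IRF8 at 0.07 and TCF4 at -0.005. Fibroblast and endothelial markers had 6 of 7 above 0 and a median of 0.15, with DCN at 0.27, LUM and COL1A1 at 0.16 and VWF at 0.15, and 0 passed in either list (limma; 0 at an unadjusted p under 0.05). The part of any such cells in the levels of the 7 genes was not tested.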

How the data were processed

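Total RNA of 12 samples in 4 groups was amplified, labelled with biotin and read on 1-colour arrays, per the labels. The authors deposited log2 values, made with RMA and Partek and with reference to genome build hg18, per the submitters' processing notes, which give no order of steps. Nothing in the sources used here gives their versions, a background step or a filter. A value stands for a row, and of 22011 rows 14432 have 1 gene symbol, 2408 several and 5171 none. By Entrez identifier, 14404 of those with 1 symbol were found in the RefSeq gene table, and 0 of the 7 genes had to be renamed. Values were used as deposited, with no filter, and 0 columns of values were left out.

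A model with 4 group means was fitted to the 12 arrays and all rows with limma 3.58.1 in R 4.3.3, using lmFit and untrended eBayes (degrees of freedom: 8 residual, 3.52 prior). Tests were two-sided, p-values were adjusted by Benjamini-Hochberg over 22011 rows, and the threshold was 0.05. With 3 arrays on each side the smallest exact permutation p is 0.1, so that test was not used. The number of arrays limits the precision, and the median standard error of a difference over all rows was 0.23. The fit was tested on simulated data with independent noise, of the same size on every array for a given row. That simulation did not cover arrays of unequal quality or arrays that deviate together.

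The 7 genes and the 13 gene lists (221 genes) were chosen with earlier results of these data known. A list's median takes 1 row per gene, the brightest. Beside the 7 genes, the text names MED12, the 8 genes with 1 symbol most like their mean profile, the 4 genes per list with the largest difference of shRNA minus GFP (8 for the interferon-induced list), the 4 interferon-induced genes with the smallest p in each comparison of the deletion with full-length MED12 or GFP, and all measured relatives. ISG15 against GFP, SAMD9, OAS2 and single markers were named after their values were seen.

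Same-numbered arrays deviated together in each of the 3 pairs between full-length and GFP arrays (r from 0.101 to 0.229) and between deletion and GFP arrays (0.149 to 0.472). The pairs of all other groups were positive too. In replicates 1, 2 and 3 the shRNA arrays had 0.464, 0.269 and 0.0223 with GFP, and 0.448, 0.282 and 0.0523 with the deletion. A fit with the replicate number as a block was therefore run. The labels do not say what a number marks. Other alternatives were quantile normalization, scaling of each array to the same SD, leaving out the dimmest rows (lowest 25% of means), a fit of 2 groups alone, a trended robust fit, array weights, and leaving out each array or the 3 narrowest.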

Additional observations from a re-analysis of the deposited data

How the results depend on the processing

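Of 1075 values under the alternatives, 1023 kept their direction, side of the threshold or size. Of the others, 21 changed sign, 29 moved and 2 came to pass the test. Part of this tally was fixed in advance. The replicate block, the trended robust fit, the fit of 2 groups and the row filter cannot change a log2 difference. Many of the arrays left out also lie outside a given comparison. A tested difference counted as kept at any size if its sign and side of the threshold held. Nothing is therefore read from the 1023. In the deletion against full-length MED12 and in full-length MED12 against GFP, 0 members passed under any alternative (limma, adjusted p at least 0.748 and 0.235). With the replicate number as a block no call of the 7 genes changed, and 11 interferon-induced genes rose with the shRNA against 9 without it. Weighting the arrays set shRNA replicate 3 to 8.77 and called 5702 rows with the shRNA and 20 with the deletion against GFP, where RSAD2 (1.29) and IFI44 (0.85) passed, 2 of the 7 genes. The median of the 7 genes was then 0.61 for the deletion against GFP, 0.197 for full-length MED12 against GFP and 1.59 for shRNA against GFP. Without the 3 narrowest arrays these medians were 0.574, 0.231 and 1.55, and that of shRNA against full-length MED12 was 1.17. Quantile normalization gave 0.990 for shRNA against the deletion and 16 interferon-induced genes that rose with the shRNA. CMPK2 changed sign in 3 comparisons: the deletion against GFP was -0.026 after quantile normalization and -0.0062 after scaling, the deletion against full-length MED12 was -0.0399 with array weights and -0.12 without the narrowest arrays, and full-length MED12 against GFP was 0.042 and 0.14. IFI44L in full-length MED12 against GFP was 0.078 with weights and 0.055 without the narrowest arrays. The cause of these changes was not tested.

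Leaving out 1 array at a time moved the median of the 7 genes between 0.239 and 0.369 for the deletion against full-length MED12, 0.351 and 0.574 for the deletion against GFP, 0.0399 and 0.231 for full-length MED12 against GFP, 1.16 and 1.49 for shRNA against GFP, 1.10 and 1.33 for shRNA against full-length MED12, and 0.707 and 1.09 for shRNA against the deletion. Interferon-induced genes that rose with the shRNA then numbered 3 to 14. Signs turned for CMPK2 (-0.122 to 0.253, -0.214 to 0.236 and -0.236 to 0.136 in the deletion against full-length MED12, the deletion against GFP and full-length MED12 against GFP), for NT5C3A in the deletion against full-length MED12 (-0.126 to 0.201), and for IFI44L (-0.166 to 0.0902) and IFI27 (-0.0948 to 0.0976) in full-length MED12 against GFP. Of the 8 genes most like the mean profile 6 to 8 were the same without 1 array and 7 after scaling. Calls over all rows were 15 for shRNA against GFP, 4 in a fit of those 2 groups, 23 after quantile normalization, and 5 and 8 without GFP replicates 2 and 3; for the deletion against full-length MED12 they ran from 0 to 4. With 3 arrays a group and no detection calls, neither small differences nor levels near background can be resolved.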
